A study of Mus musculus with 6 samples.

Results

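The voltage-gated sodium channels of neurons and their partner Fgf14 were followed as 8 genes, 4 pore-forming alpha subunits (Scn1a, Scn2a, Scn3a and Scn8a), 3 beta subunits (Scn2b, Scn3b and Scn4b) and Fgf14. They were taken by their GENCODE M21 symbol from a table of 48709 mouse genes, and all 8 had enough reads to be tested. RNA was sequenced from whole cerebellum of C57BL/6J mice at 40 weeks, in 3 samples from SCA7 140Q/5Q knock-in mice and 3 from wild-type mice. Spinocerebellar ataxia type 7 (SCA7) results from a lengthened run of glutamines in ataxin-7. The knock-in mice carried an Atxn7 allele for 140 glutamines and another for 5, and the wild-type mice carried no knock-in allele. The allele is present in every cell of the mouse, and the labels do not state whether any animals were pooled.

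Voltage-gated sodium channels open on depolarization and carry the inward current of the action potential. The alpha subunit forms the pore, and the beta subunits, small membrane proteins with an immunoglobulin fold, change its gating and help to place it in the membrane. Channels are dense at the axon initial segment, where ankyrin-G anchors them. Cerebellar Purkinje cells fire without synaptic input, and a resurgent sodium current through channels that contain the Scn8a product helps them to fire at high rates.

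Totals lay between 34630391 and 39826478 reads in the knock-in libraries and between 39528292 and 49127673 in the wild-type libraries, and each member had between 93 and 22792 reads per library. Values are CPM (reads of a gene relative to the library total) scaled by the TMM method of edgeR. All 12 Purkinje cell and all 11 granule neuron markers listed were tested, and their summed levels were 7493 to 9028 and 4826 to 5754 CPM in knock-in, against 11010 to 12350 and 5915 to 6511 CPM in wild type. Of these markers 4 Purkinje cell genes (Calb1, Pcp4, Car8 and Itpr1) and 1 granule neuron gene (Cbln3) were called lower and none higher, with median log2 fold changes of -0.34 and -0.14. The 5 molecular layer interneuron markers had a median of -0.16 with no call, and the 7 astrocyte and Bergmann glia markers one of -0.49 with 4 called lower (A2m, Slc1a2, Aqp4 and Gja1). In RNA of whole cerebellum, fewer cells of a type and less RNA per cell cannot be told apart. Markers of monoamine and cholinergic brainstem neurons summed to 78.7, 15.3 and 44.4 CPM in knock-in replicates 1, 2 and 3, against 16.3 to 22.5 CPM in wild type. Knock-in replicates 1 and 3 therefore stood apart in brainstem RNA. Knock-in replicate 2 stood apart in choroid plexus RNA, whose 5 markers summed to 263.2, 15.8 and 1295 CPM in knock-in replicates 1, 2 and 3 and to 511.6, 492.2 and 1873 CPM in wild type. Of the 15 brainstem markers 1, Hoxd4, had no read in any library, and of the 6 tested 5 were above wild type, with no call. The part of these markers in the members' values was not tested.

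Per kilobase of exon, the scale on which different genes can be compared, the beta subunit Scn2b had the highest level of the 8, 84.2 ± 9.61 CPM per kb in knock-in and 104.3 ± 5.50 in wild type (mean ± SD, n = 3 each). Scn4b, the beta subunit whose cytoplasmic tail can block the open pore and so give rise to resurgent current, was next with 36.8 ± 5.06 CPM per kb in knock-in and 45.8 ± 4.98 in wild type. The alpha subunits Scn1a and Scn2a were close to each other. Scn1a had 24.0 ± 2.91 CPM per kb in knock-in and 26.3 ± 1.02 in wild type, and Scn2a 21.6 ± 3.76 in knock-in and 25.2 ± 2.80 in wild type. Scn1a was above Scn2a in 5 of 6 libraries, with ratios between 0.97 and 1.19, so their order was within the spread. Scn8a had 16.3 ± 2.77 CPM per kb in knock-in and 20.1 ± 1.97 in wild type. Fgf14 had 16.7 ± 2.66 CPM per kb in knock-in and 17.7 ± 0.42 in wild type. Scn8a was above Fgf14 in 1 of 3 knock-in and 3 of 3 wild-type libraries. Well below these came Scn3b, at 2.30 ± 0.88 CPM per kb in knock-in and 1.25 ± 0.16 in wild type, and Scn3a, at 0.34 ± 0.15 in knock-in and 0.21 ± 0.07 in wild type. Every other neighbouring pair kept its order in 6 of 6 libraries. The exon length is the union of all annotated exons, so a gene with many alternative exons has its level understated.

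**Figure D1:**
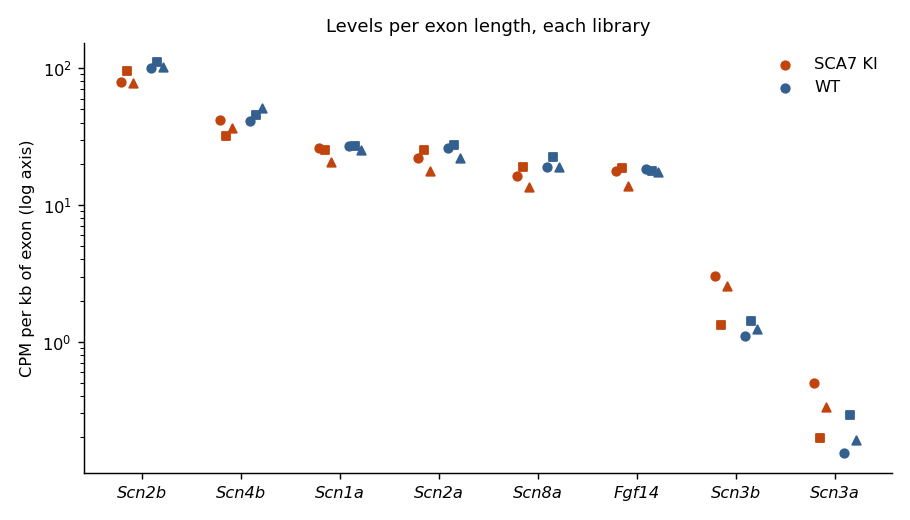
Level of each gene per kilobase of exon (CPM per kb, log axis) in the 3 knock-in and 3 wild-type libraries, with circles, squares and triangles for replicates 1, 2 and 3. Scn2b and Scn4b lie above the alpha subunits Scn1a, Scn2a and Scn8a, and Scn3b and Scn3a lie well below all others.

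No member passed the test between knock-in and wild type, 0 of 8 with an adjusted p of 0.05 or less in edgeR, where 1.9% of 16699 tested genes passed. By size the most abundant genes lay below wild type and the rarest lay above it. Log2 fold changes, knock-in over wild type, were below 0 for 6 members and above 0 for Scn3a and Scn3b, with a median of -0.18 against 0.01 over all genes tested. The members' median was -0.062 without knock-in replicate 3, -0.096 with offsets for GC content and exon length, -0.11 with scaling by library size alone and -0.055 with knock-in replicate 2 alone. It moved the other way, to -0.227, with the mean log2 CPM of the brainstem markers in the fit. Without knock-in replicate 1 it was -0.212, without wild-type replicate 3 -0.21 and without knock-in replicate 2 -0.205. At an unadjusted p at or under 0.05 there were 4 members, where 18.1% of all tested genes were found. They were 3 lower (Scn8a, Scn2b and Scn4b) and 1 higher (Scn3b), beside 8.26% of all tested genes lower and 9.81% higher. DESeq2 called Scn2b and Scn3b, and limma-voom called none. With no filter on low counts edgeR called Scn8a, Scn2b, Scn3b and Scn4b. Without knock-in replicate 2, edgeR called Scn8a, Scn2b and Scn3b.

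**Figure D2:**
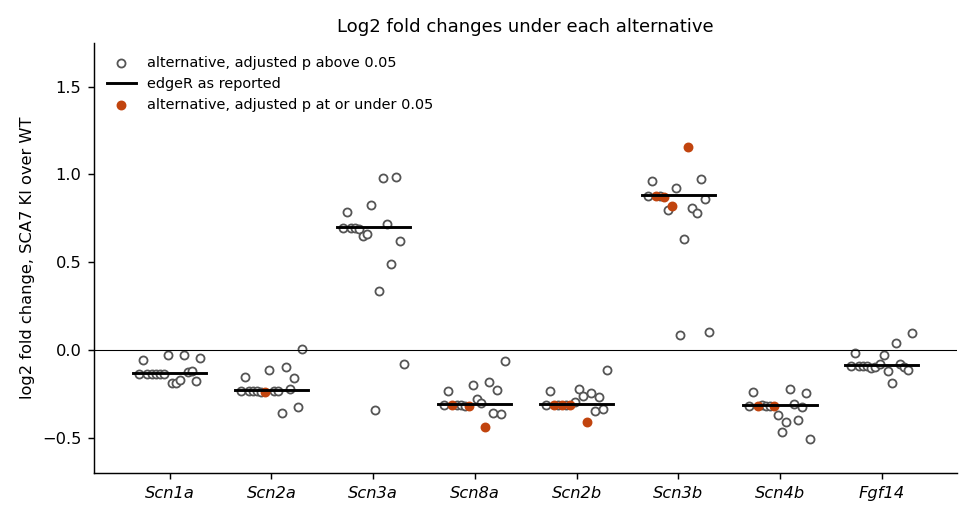
Log2 fold change of each gene, knock-in over wild type, as reported (black line) and under the 16 alternatives run for it (circles), filled where the adjusted p was at or under 0.05. Scn1a, Scn3a and Fgf14 have no filled circle, and Scn1a, Scn8a, Scn2b, Scn3b and Scn4b stay on 1 side of 0 throughout.

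Scn1a, a pore subunit of fast-spiking neurons whose loss causes epilepsy in humans and mice, lies on chromosome 2 (66270778 to 66440840, minus strand, mm10). It had 291.1, 280.6 and 230.5 CPM in knock-in and 300.5, 298.4 and 279.9 CPM in wild type. The groups overlapped, and knock-in replicate 3 was the lowest library. Its log2 fold change was -0.13 ± 0.09 (± SE here and below, n = 3 each, 95% interval -0.34 to 0.08), and the adjusted p from edgeR was 0.50.

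Scn2a, a pore subunit of unmyelinated axons and immature initial segments, lies on the same chromosome, plus strand, at 65620771 to 65767447. It had 279.6, 319.4 and 224.0 CPM in knock-in and 330.0, 351.8 and 282.2 CPM in wild type. Knock-in replicate 2 was above the lowest wild-type library, and knock-in replicate 3 was the lowest of all. Set against wild type, Scn2a had a log2 fold change of -0.23 ± 0.13 (95% interval -0.51 to 0.06, adjusted p 0.38).

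Scn8a, the main pore subunit of mature initial segments and nodes of Ranvier and a carrier of resurgent current in Purkinje cells, lies on chromosome 15 (100869858 to 101045938, plus strand). It had 256.2, 299.8 and 212.6 CPM in knock-in and 299.1, 353.0 and 299.5 CPM in wild type. Only knock-in replicate 2 reached the wild-type range, at its lower edge. This gave a log2 fold change of -0.31 ± 0.12 (95% interval -0.58 to -0.04) with an edgeR adjusted p of 0.22.

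Exon length and GC content moved with library. The annotated exons sum to 11146 bases for Scn1a, 12732 for Scn2a, 12459 for Scn3a and 15766 for Scn8a. In knock-in replicate 3, the lowest library for Scn1a, Scn2a and Scn8a, levels across all genes relative to the mean of the libraries had a Spearman rho of -0.43 with exon length and 0.31 with GC content, a description across genes, which are not independent. Scn3a, of like length, was not low in that library. Other libraries had such trends too. The rho with GC content was -0.54 in wild-type replicate 1 and 0.23 in knock-in replicate 2, and that with exon length was 0.28 in wild-type replicate 2. With offsets for GC content and exon length together the log2 fold changes were -0.03 for Scn1a, -0.11 for Scn2a and -0.20 for Scn8a. Without knock-in replicate 3 they were -0.03, -0.10 and -0.18. Fgf14, which has shorter exons of 4182 bases in all, was also lowest in that library. The parts of exon length and of GC content were not tested apart.

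Scn3a, a pore subunit that is abundant in the embryo and low in the adult rodent brain, lies beside Scn2a at 65457118 to 65567627 on the minus strand, 53.1 kb away. It had 6.20, 2.46 and 4.18 CPM in knock-in and 1.91, 3.60 and 2.40 CPM in wild type. The level of knock-in replicate 2 was among the wild-type levels, and those of knock-in replicates 1 and 3 were above them. Its log2 fold change was 0.70 ± 0.33 (95% interval -0.03 to 1.42, adjusted p 0.29). It was -0.34 in a fit that also held the mean log2 CPM of the brainstem markers, a measure that itself differed between the groups, and -0.079 when knock-in replicate 2 alone was set against wild type.

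Between group means, the shares of the alpha subunits in their sum differed by at most 2.09 percentage points, the value for Scn1a, which was 3.34 without knock-in replicate 2 and 1.13 without wild-type replicate 2. Of the summed alpha subunit level per exon length, Scn1a made up 38.7 ± 2.19% in knock-in and 36.7 ± 1.67% in wild type. Scn2a made up 34.6 ± 1.32% in knock-in and 35.1 ± 1.49% in wild type, and Scn8a 26.1 ± 1.17% in knock-in and 28.0 ± 1.44% in wild type. Scn3a made up 0.77, 0.28 and 0.64% in the knock-in libraries and 0.21, 0.38 and 0.29% in the wild-type libraries. None of the 4 shares passed a two-sided exact permutation test of 3 against 3 samples, whose smallest possible p is 0.10: the exact p-values were 0.30 for Scn1a, 1.0 for Scn2a, 0.30 for Scn3a and 0.20 for Scn8a, and 0.40, 1.0, 0.40 and 0.40 after adjustment over the 4. The summed alpha subunit level was 64.8, 69.5 and 52.1 CPM per kb in knock-in and 72.0, 77.1 and 66.5 in wild type, ranges that overlapped. The summed beta subunit level was 124.7, 128.4 and 116.9 CPM per kb in knock-in and 142.4, 157.2 and 154.1 in wild type, ranges that did not overlap.

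**Figure D3:**
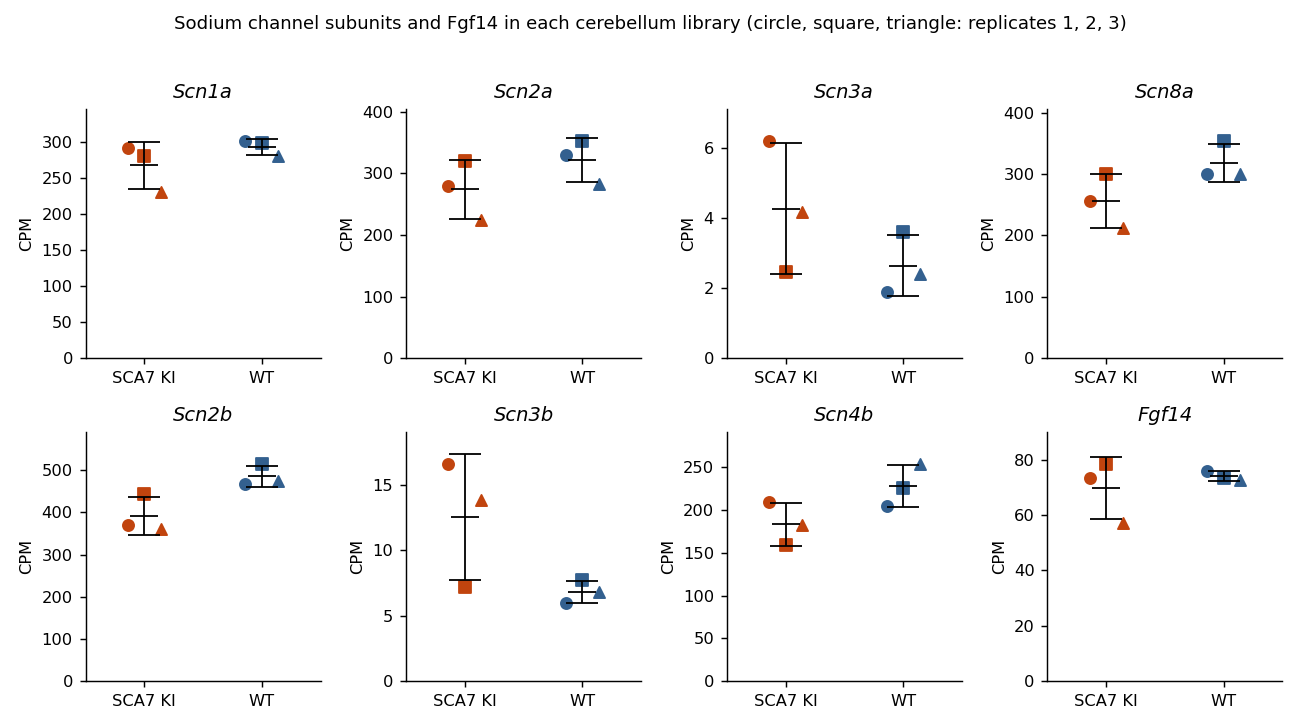
CPM of each gene in the 3 knock-in (left) and 3 wild-type (right) libraries, with circles, squares and triangles for replicates 1, 2 and 3 and bars for the mean ± SD. The groups are apart only for Scn2b, at 361.7 to 443.4 CPM in knock-in and 466.9 to 514.6 CPM in wild type. For Scn3a and Scn3b knock-in replicate 2 sits among the wild-type libraries.

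Scn2b and Scn4b, the beta subunits that bind the alpha subunit through a disulphide bond, are neighbours on chromosome 9, both on the plus strand, at 45117782 to 45130070 and 45138395 to 45154152, with 8.3 kb between them. Their RefSeq windows of 250 bases before to 50 bases after the start (GRCm38.p6), chr9:45117626-45117925 for Scn2b and chr9:45138374-45138673 for Scn4b, are shown because these neighbours had nearly the same log2 fold change but differ in base composition at their starts. Capitals mark the motif CCAAT on either strand.
Scn2b: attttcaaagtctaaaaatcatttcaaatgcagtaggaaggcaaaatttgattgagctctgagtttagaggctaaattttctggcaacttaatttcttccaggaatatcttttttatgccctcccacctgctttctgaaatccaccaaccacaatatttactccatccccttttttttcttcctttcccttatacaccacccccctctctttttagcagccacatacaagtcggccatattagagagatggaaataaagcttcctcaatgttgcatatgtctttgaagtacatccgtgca
Scn4b: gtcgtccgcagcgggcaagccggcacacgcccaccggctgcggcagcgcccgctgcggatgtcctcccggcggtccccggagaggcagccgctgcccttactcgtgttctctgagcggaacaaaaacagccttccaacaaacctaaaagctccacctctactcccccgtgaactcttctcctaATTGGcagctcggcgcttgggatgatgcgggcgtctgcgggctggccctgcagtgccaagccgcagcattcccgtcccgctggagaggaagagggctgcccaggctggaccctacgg
The Scn2b window has 38.3% G and C and the Scn4b window 66.3%, where the median over all mouse windows was 52.7%. On either strand the Scn4b window holds CCAAT 1 time, as 37.4% of all 32851 windows do, and the Scn2b window does not hold it. Neither window holds GGGCGG, found in 35.7% of windows, or TATAAA, found in 13.6%. These are letters in a window and not measured sites.

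Scn2b had 370.8, 443.4 and 361.7 CPM in knock-in and 466.9, 514.6 and 474.7 CPM in wild type. It was the only member whose groups did not overlap, as was so for 23.8% of all tested genes. Its log2 fold change was -0.31 ± 0.09 (95% interval -0.51 to -0.10) with an edgeR adjusted p of 0.13, and -0.11 when knock-in replicate 2 alone was set against wild type.

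Scn4b had 209.1, 158.7 and 182.6 CPM in knock-in and 204.4, 225.5 and 253.8 CPM in wild type. Knock-in replicate 1 lay between wild-type values and the other knock-in libraries were below them. The log2 fold change was -0.31 ± 0.11 (95% interval -0.56 to -0.06, adjusted p 0.19). It was -0.51 when knock-in replicate 2 alone was set against wild type and -0.47 with the brainstem markers in the fit, uncalled in both. The neighbours differed in their order of libraries: knock-in replicate 2 was the highest knock-in library for Scn2b and the lowest for Scn4b. The ratio of Scn4b to Scn2b per exon length was 0.53, 0.33 and 0.47 in knock-in and 0.41, 0.41 and 0.50 in wild type, so the knock-in libraries spread over a wider range that took in every wild-type value.

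Scn3b, a beta subunit held to the channel without a covalent bond, lies on chromosome 9 (40269217 to 40291618, plus strand). It had 16.6, 7.23 and 13.9 CPM in knock-in and 5.98, 7.71 and 6.79 CPM in wild type. Knock-in replicate 2 was between wild-type values, and knock-in replicates 1 and 3 were above every wild-type library. Scn3b had a log2 fold change of 0.88 ± 0.25 (95% interval 0.32 to 1.44) with an edgeR adjusted p of 0.11. The 2 high libraries were those with the most brainstem RNA. With the brainstem markers in the fit it was 0.087, and when knock-in replicate 2 alone was set against wild type it was 0.10. Without knock-in replicate 2 it was 1.16 with an adjusted p of 0.00233.

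**Figure D4:**
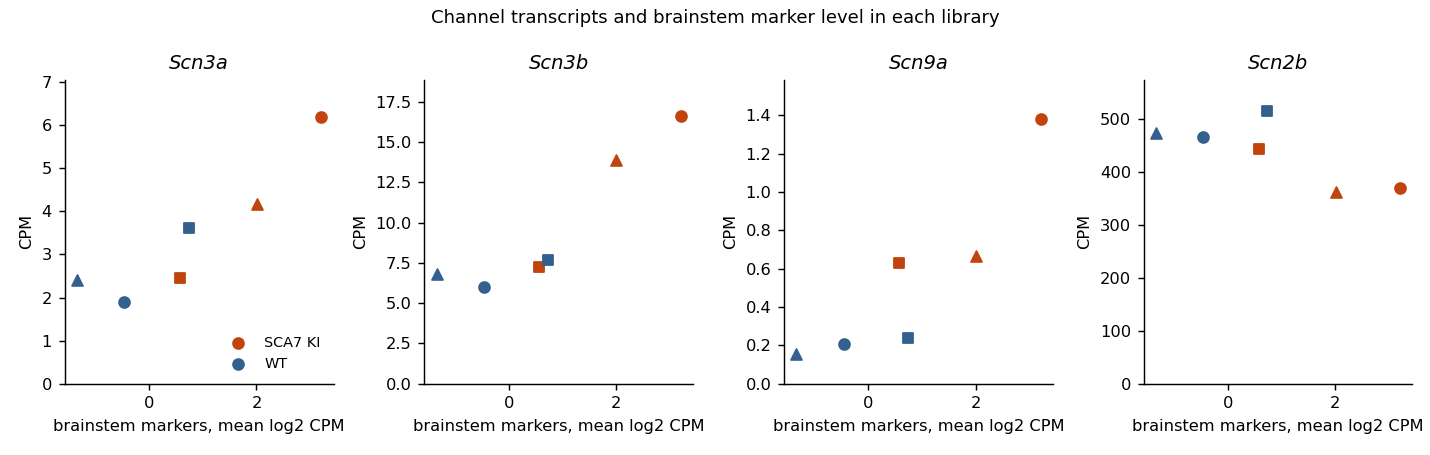
CPM of Scn3a, Scn3b, Scn9a and Scn2b in each library against the mean log2 CPM of 6 brainstem markers, knock-in and wild type in separate colours and replicates by symbol. Knock-in replicates 1 and 3 have the highest brainstem levels, 3.21 and 2.01, and the highest Scn3a and Scn3b levels, while knock-in replicate 2, at 0.57, is below wild-type replicate 2, at 0.74.

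Fgf14 encodes an intracellular relative of fibroblast growth factors that binds the tail of the alpha subunit, sets its inactivation and, when mutated in humans, causes an inherited ataxia. It lies on chromosome 14 (123977907 to 124677127, minus strand), 109.9 Mb from Atxn7. It had 73.5, 78.3 and 57.1 CPM in knock-in and 76.0, 73.5 and 72.6 CPM in wild type. The highest and the lowest library were both knock-in. For Fgf14 the log2 fold change was -0.09 ± 0.11 (95% interval -0.33 to 0.16) with an edgeR adjusted p of 0.72, and 0.042 without knock-in replicate 3. GENCODE M21 gives it 2 transcripts with different first exons, which gene counts do not separate. Of its exons 5.26% lie under the antisense gene Gm28932, and the strand setting of the counting is not given in the sources used here.

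**Figure D5:**
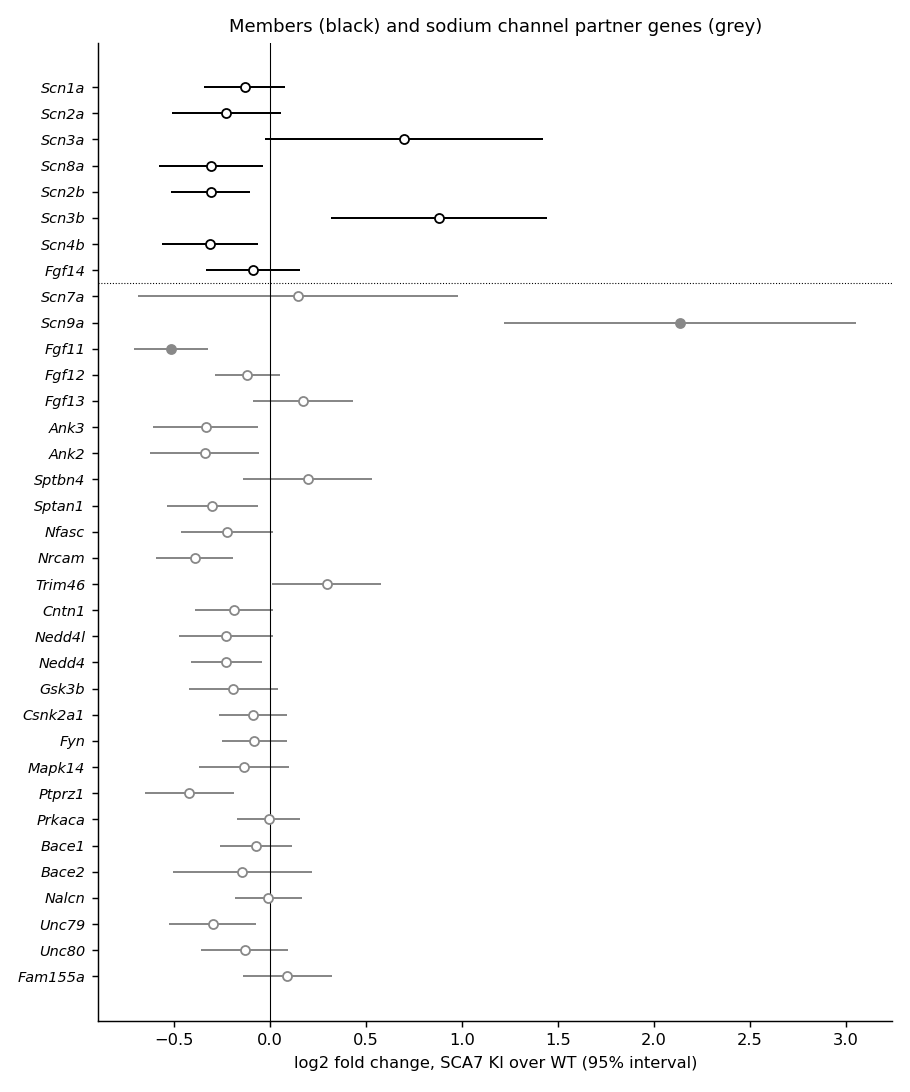
Log2 fold change, knock-in over wild type, with its 95% interval for the 8 members (black) and partner genes that were tested (grey), filled where the edgeR adjusted p was at or under 0.05. No member is filled. Of the partners Scn9a, at 2.13, and Fgf11, at -0.52, are filled.

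A list of 32 other genes of the channel complex, its scaffold and its regulators was read from the same fit. Of the 28 tested, 1 fell and 1 rose, where 1.28% of all tested genes fell and 0.629% rose. The median log2 fold change of the list was -0.13, with 22 below 0 and 6 above it. Fgf11, another fibroblast growth factor homologue that binds sodium channels, had 45.9, 54.3 and 50.2 CPM in knock-in and 73.2, 74.0 and 67.8 CPM in wild type. Every knock-in library was below every wild-type library, with a log2 fold change of -0.52 ± 0.09 (edgeR adjusted p 0.0209). Its relatives Fgf12 and Fgf13 had log2 fold changes of -0.12 ± 0.08 (adjusted p 0.45) and 0.17 ± 0.12 (adjusted p 0.48).

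Scn9a, a pore subunit known from sensory and sympathetic neurons, rested on few reads, 51, 25 and 24 in knock-in and 10, 10 and 6 in wild type. It had 1.38, 0.63 and 0.67 CPM in knock-in and 0.20, 0.24 and 0.16 CPM in wild type, and every knock-in library was above every wild-type library, with a log2 fold change of 2.13 ± 0.41 (edgeR adjusted p 0.0321). It was highest in knock-in replicate 1, the library with the most brainstem RNA, and was above wild type also in knock-in replicate 2. Neither call held when knock-in replicate 1 or 3 or any wild-type library was left out, with adjusted p-values between 0.0576 and 0.139 and log2 fold changes of -0.45 to -0.57 for Fgf11 and 1.68 to 2.31 for Scn9a. Both calls held with DESeq2, limma-voom, either other scaling, no filter, and GC and length offsets, and without knock-in replicate 2. With the brainstem covariate the log2 fold changes were 1.19 for Scn9a and -0.44 for Fgf11, and neither was called. Scn7a, another pore subunit, was scarce and had 1.01 ± 0.45 CPM in knock-in and 0.91 ± 0.27 CPM in wild type, and Scn4a, Scn10a and Scn11a had too few reads to be tested.

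Among 8 scaffold and adhesion genes of the initial segment none was called, and the median log2 fold change was -0.26. Ank3, which encodes ankyrin-G, had 315.1, 352.8 and 244.9 CPM in knock-in and 375.7, 415.9 and 359.9 CPM in wild type. Its groups did not overlap, with knock-in lower, as was so for 11.5% of all tested genes. Its log2 fold change was -0.34 ± 0.12 (adjusted p 0.19). Nrcam, an adhesion molecule bound by ankyrin-G, had a log2 fold change of -0.39 ± 0.09 (adjusted p 0.0605), while the initial segment spectrin Sptbn4 had 0.20 ± 0.15 (adjusted p 0.54) and Trim46, which bundles initial segment microtubules, 0.30 ± 0.13 (adjusted p 0.26). The groups did not overlap for Nrcam either, with knock-in lower. For Trim46 they did not overlap with knock-in higher, as was so for 12.3% of all tested genes. All 10 regulators were below 0, as were 8125 of all 16699 genes tested, and none was called. That direction did not hold for each of them under every alternative: with scaling by library size alone Prkaca was at 0.07 and Bace1, a protease that cleaves beta subunits, at 0.0004. The lowest was the receptor phosphatase Ptprz1 at -0.42 ± 0.10 (adjusted p 0.0806). Prkaca, the catalytic subunit of protein kinase A, had -0.01 ± 0.07 (adjusted p 0.97). The sodium leak channel gene Nalcn had -0.01 ± 0.08 (adjusted p 0.97), and its auxiliary subunit gene Unc79 had -0.30 ± 0.10 (adjusted p 0.17).

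Genes most like Scn3b and Scn2b, the members with the smallest unadjusted p, were sought among 13280 protein-coding genes by the mean absolute difference of log2 CPM, each gene centred on its own mean over the 6 libraries. For Scn3b these were Elfn1, a synaptic adhesion protein, at 0.10, the neuropeptide gene Nts at 0.10 and Pcbd1, a cofactor-recycling enzyme, at 0.11. Elfn1 had 3.84, 1.76 and 3.01 CPM in knock-in and 1.25, 2.12 and 1.58 CPM in wild type, again with knock-in replicate 2 close to wild type. For Scn2b they were Gldc, a glycine cleavage enzyme, at 0.018, the transcription factor Hlf at 0.022 and the lipid phosphatase Plpp3 at 0.024. Plpp3 had 251.1, 291.0 and 246.2 CPM in knock-in and 300.8, 336.1 and 313.9 CPM in wild type. The likeness is over 6 libraries that differ in genotype and composition, and it is a description of them.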

How the data were processed

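Raw read counts per Ensembl gene were deposited by the authors, made with HTSeq 0.6.1 after TopHat2 2.0.14 and Bowtie2 2.1.0 on mm10, per the submitters' processing notes. Libraries were stranded and made from polyadenylated RNA, per the labels' protocols. GENCODE M21 matched 48349 of 48709 identifiers. Tests used R 4.3.3 and edgeR 4.0.16: filterByExpr (minimum count 10, total 15), TMM, quasi-likelihood F test on genotype alone, Benjamini-Hochberg adjustment over 16699 genes, called at 0.05. The SE is the absolute log2 fold change over the square root of F. DESeq2 1.42.0 and limma 3.58.1 served as alternatives. The procedure was tested on simulated counts. The common biological coefficient of variation was 0.115. CPM per kb divides CPM by the union exon length. Members and lists were chosen with earlier results of these data known. Named genes were all members, called partners and, per member of the 2 with the smallest p, the 3 nearest genes; other partners and markers were named after their values were seen. Pairs of libraries within a group differed by more than counting noise (chi-square per degree of freedom 14.08 to 30.51). Whether the samples are separate animals is not stated in the labels, and the spread behind each p-value may then be technical. Some partner genes are left unnamed but are included in the list counts.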

Additional observations from a re-analysis of the deposited data

How the results depend on the processing

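Of 128 refits of single members, 123 kept the direction and 14 were called (Scn3b and Scn2b 4 each, Scn8a 3, Scn4b 2, Scn2a 1). Reversed values were -0.34 for Scn3a with the brainstem covariate, 0.042 for Fgf14 without knock-in replicate 3 (-0.19 to 0.042 over the left-out replicates) and, with knock-in replicate 2 alone (a setting chosen after seeing the data, which assumes the lone sample varies like the others), 0.0083 for Scn2a, -0.079 for Scn3a and 0.098 for Fgf14.

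Counts of called members, partners and all genes, 0, 2 and 318 as reported, were 4, 7 and 1303 without a filter on low counts and 2, 4 and 908 with DESeq2. With GC and length offsets partners and all genes numbered 5 and 794, and with the brainstem covariate 0 and 4. With knock-in replicate 2 alone they numbered 0 and 23. A filter at a mean CPM of 1 left 1 partner, since Scn9a was not tested. Scaling by library size alone gave 513 genes, 190 lower and 323 higher, against 213 and 105 as reported. Leaving out each replicate in turn gave 0 to 3 members, 0 to 8 partners and 39 to 858 genes. The cause of these differences was not tested.

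With the replicate block, 5 members (Scn2a, Scn8a, Scn2b, Scn3b and Scn4b), 12 partners and 2034 genes were called. Same-numbered samples had correlations of deviations of 0.001, 0.174 and 0.318. Knock-in replicates 2 and 3 correlated best with their own number and knock-in replicate 1 with wild-type replicate 3 (0.046). The labels give no pairing, and whether numbers 2 and 3 share a batch was not tested. No share of an alpha subunit reversed in any alternative run. Reads per library numbered 93 to 229 for Scn3a and 6 to 51 for Scn9a, the fewest among the members and the called partners.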
